A study of Mus musculus with 12 samples.

Results

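Hepatic stellate cells were described in these livers through 10 marker genes, taken whole from a named list and not by any measured value: Reln, Lrat, Colec11, Cygb, Ecm1, Pdgfrb, Pdgfra, Des, Vim and Acta2. All 10 are among the 50499 genes of the count table. Of these 10, 9 had counts and passed the filter on low counts, and 1, Lrat, was listed at 0 in all 12 libraries, so the tests below cover 9 of the 11934 genes tested. RNA was sequenced from livers of male C57BL/6 mice (the C57Bl/6NCrl substrain, per the protocol) in 4 groups of 3 libraries. All mice were 6 weeks old when they began on chow with normal water or on Western diet with sugar water. After 12 weeks all received an AAV8 vector by tail vein, either AAV8-TBG-Null (genotype label WT) or AAV8-TBG-siAATF (genotype label KD), and the series describes 12 more weeks of observation. The groups are called chow null, chow siAATF, Western null and Western siAATF. TBG is a promoter active in hepatocytes, so the vector was directed at hepatocytes and not at stellate cells, and every control also carries a vector. Nothing in the labels says that each replicate number is its own mouse, so the tests see only the spread among these libraries, which may be technical.

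Stellate cells lie between hepatocytes and the sinusoidal endothelium, where they store vitamin A as retinyl ester. In chronic liver injury they lose this store, divide in response to platelet-derived growth factor and become contractile cells that make scar collagen. In mouse liver Reln, Lrat, Colec11, Cygb and Ecm1 are used as markers of the resting or secretory state, Pdgfrb and Pdgfra encode receptors for the growth factor, and Des, Vim and Acta2 encode cytoskeletal proteins, with Acta2 the usual mark of activation. Several are shared with other cells: Vim is made by endothelial cells and leukocytes, Acta2 by vascular smooth muscle, Des by all muscle, and both receptors by portal fibroblasts. In whole liver, fewer cells of a type and less RNA per cell cannot be told apart.

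The libraries held 1646853 to 13469819 counts, and the 18S ribosomal RNA gene took 0.871% to 50.8% of them. Levels are given as CPM, the counts of a gene scaled to the size of its library (TMM). A floor of 3 counts stood at 0.185 to 1.69 CPM, and intervals and floors cover counting error only. The hepatocyte list of 9 genes (albumin among them) summed to 57107 to 112429 CPM in every library, the tissue the labels give. The Aatf transcript had no lower mean with the siAATF label on either diet. On Western diet it measured 27.6, 21.1 and 29.997 CPM with the null vector, against 26.98, 27.5 and 28.2 with siAATF. On chow it measured 36.8, 26.5 and 31.6 CPM, against 39.2, 24.6 and 40.5. The edgeR adjusted p of Aatf was 0.953 on Western diet and 1 on chow, and siAATF below means the label. 1 library stood apart. In Western siAATF replicate 1, 15 skeletal muscle genes chosen after its values were seen summed to 7179 CPM (32464 counts, 0.700% of the library), against 0.681 to 17.7 CPM in the other 11 libraries. In that library 14 of the 15 had a count, all 14 above every other library. Myog, a regulator of muscle differentiation, was at 0. Western siAATF replicates 2 and 3 were the next highest in this sum, at 17.7 and 7.48 CPM, against at most 3.14 CPM in the other groups. Fold changes of Des and the likeness between genes are given with and without Western siAATF replicate 1.

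The reference promoters of 3 markers are shown: Vim and Colec11 because both rose with the diet, and Des because it was the marker that moved with the skeletal muscle genes. Each is the 250 bases before the annotated start from RefSeq, build GRCm38.p6, printed 5′ to 3′ on the gene's strand. Capitals mark matches to the TATA box (letters TATAAA, on either strand) or to the E-box (CANNTG, a sequence read by many basic helix-loop-helix factors, the same on both strands).
Vim, chr2:13574061-13574310, plus strand: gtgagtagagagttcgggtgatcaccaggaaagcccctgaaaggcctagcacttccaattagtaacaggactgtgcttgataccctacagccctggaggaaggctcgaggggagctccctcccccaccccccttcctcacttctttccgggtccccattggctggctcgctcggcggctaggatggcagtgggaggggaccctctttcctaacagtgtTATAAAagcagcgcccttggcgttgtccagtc
Colec11, chr12:28623331-28623580, minus strand: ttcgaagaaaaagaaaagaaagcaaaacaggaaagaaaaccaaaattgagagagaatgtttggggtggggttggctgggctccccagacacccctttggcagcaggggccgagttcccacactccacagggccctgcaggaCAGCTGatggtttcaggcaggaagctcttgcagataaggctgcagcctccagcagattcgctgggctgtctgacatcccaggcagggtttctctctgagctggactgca
Des, chr1:75360042-75360291, plus strand: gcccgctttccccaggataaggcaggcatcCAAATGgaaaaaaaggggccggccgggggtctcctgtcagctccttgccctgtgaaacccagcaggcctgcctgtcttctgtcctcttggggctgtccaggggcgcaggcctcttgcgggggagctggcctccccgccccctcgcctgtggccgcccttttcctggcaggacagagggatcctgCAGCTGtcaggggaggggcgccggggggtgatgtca
Vim had 1 TATA box, from base -32, and no E-box. Colec11 had 1 E-box, from base -109, and Des had 2, from bases -220 and -36, and neither had a TATA box. Over 32851 promoters of this length, 66.2% held an E-box and 12.4% the TATA box. The CArG box, the motif of serum response factor, was searched only by its strict letters (CC, then A or T only, then GG). That strict form was found in 1.47% of promoters and in none of the 8 marker promoters in the table. Forms with a C or G in the middle were not counted, and the Acta2 promoter holds CCCTATATGG and CCTTGTTTGG. These matches describe the letters only.

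On the Western diet with the null vector, markers from each of the 3 roles rose. Vim was 3.96-fold higher than in chow null livers (95% interval 2.42 to 6.49), Pdgfrb 3.16-fold (1.90 to 5.23), Cygb 3.14-fold (1.92 to 5.13) and Colec11 2.43-fold (1.59 to 3.72). Of the 9 markers tested, 4 were called higher and none lower by edgeR's quasi-likelihood test at an adjusted p under 0.05. Over all genes tested, 13.2% were called in either direction, 6.44% higher and 6.77% lower. The median log2 fold change of the 9 markers was 1.28 and that of all genes -0.03. In 5 markers (these 4 and Reln) all 3 Western libraries lay above all 3 chow libraries, as did 17.7% of all genes tested. With scaling by total count alone the median of all genes moved up by 0.29, the share of calls that were higher went from 48.8% (of 1577) to 75.9% (of 739), and 4 markers were called, all higher.

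**Figure D1:**
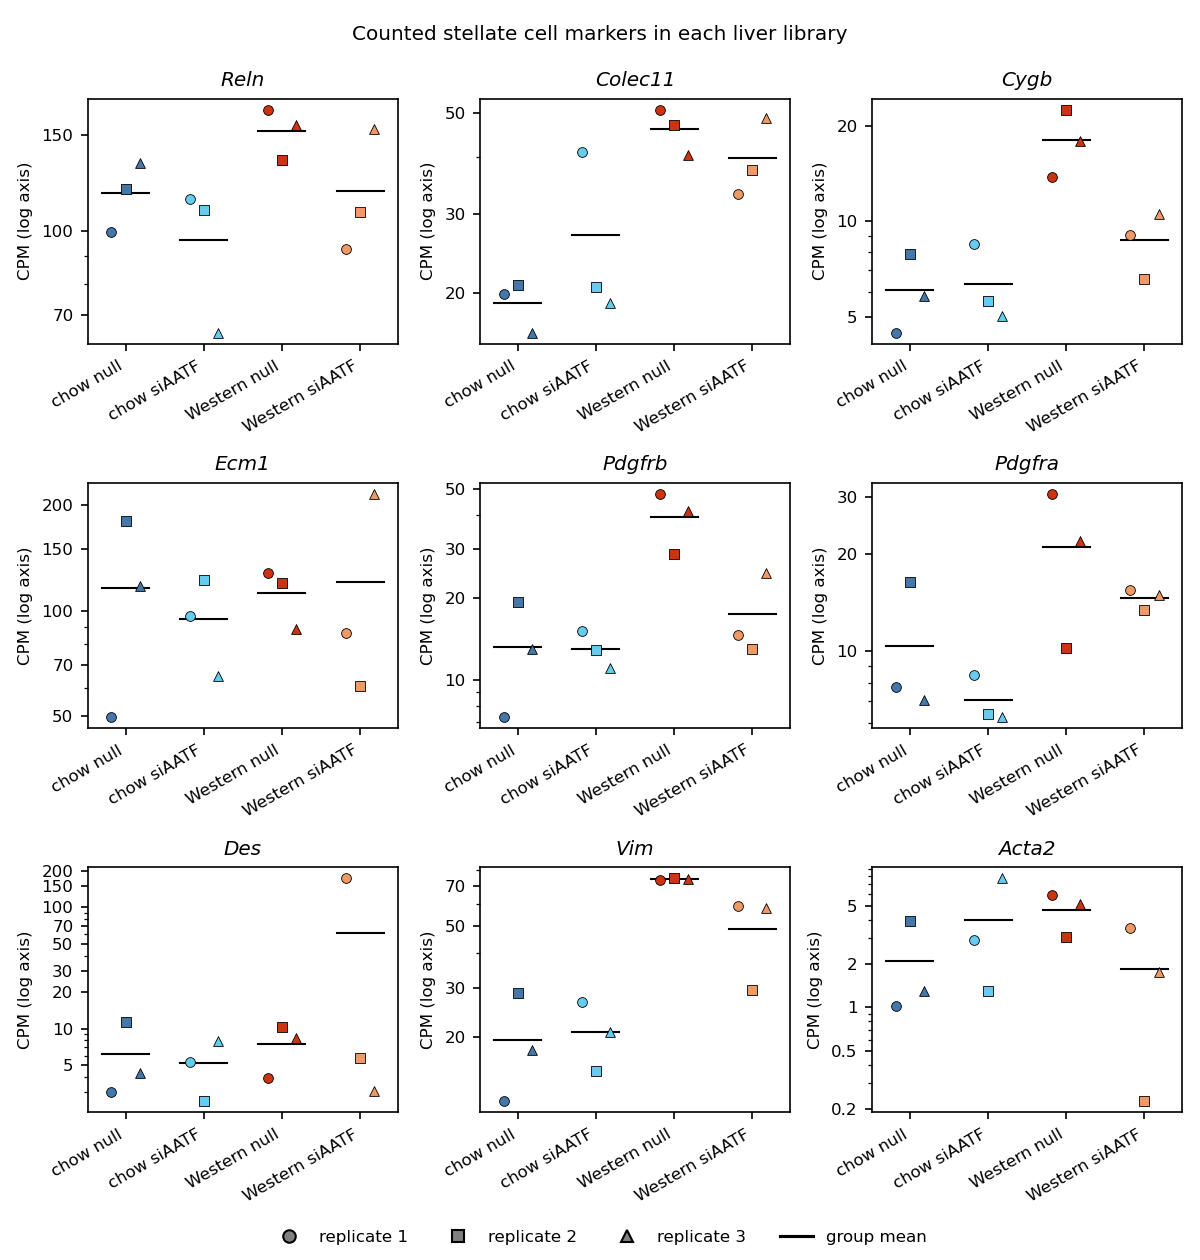
Level of the 9 counted stellate cell markers in each of 12 liver libraries, in CPM on a log axis that differs between panels; points are libraries (shape gives the replicate) and lines are means of 3. The Western null libraries lie above all chow null libraries for Reln, Colec11, Cygb, Pdgfrb and Vim, and 1 Western siAATF library stands at 175 CPM for Des.

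Among the markers of the resting or secretory state, Cygb and Colec11 rose while Reln and Ecm1 did not pass the test. Cygb (GRCm39 chromosome 11, 116536421 to 116545330, minus strand) encodes cytoglobin, a globin of stellate cells that binds oxygen and nitric oxide. It measured 4.46, 7.91 and 5.83 CPM in the chow null libraries and 13.8, 22.5 and 17.9 in the Western null libraries. The lowest Western library was thus well above the highest chow library, and the log2 fold change was 1.65 ± 0.34 (SE, edgeR adjusted p = 0.00459). Its span overlaps the antisense gene Prcd over 8.17% of its length, and Prcd had 9 counts in all 12 libraries together.

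Colec11 (GRCm39 chromosome 12, 28644171 to 28673458, minus strand) encodes collectin-11, a secreted lectin that starts complement activation. It measured 19.9, 20.9 and 16.4 CPM in chow null and 50.9, 47.0 and 40.4 in Western null, again with no overlap. Its log2 fold change was 1.28 ± 0.29 (edgeR adjusted p = 0.00891). Of the 4 calls, this alone was ended by an alternative: without chow null replicate 3 the adjusted p was 0.0614.

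Reln (GRCm39 chromosome 5, 22089452 to 22549703, minus strand) encodes the secreted glycoprotein reelin. It had 8853 counts in all, more than any other of the 10. It measured 99.5, 119 and 133 CPM in chow null and 167, 135 and 156 in Western null. The 2 groups did not overlap, though the highest chow and the lowest Western library differed by under 2 CPM. Its log2 fold change of 0.38 ± 0.26 did not pass (edgeR adjusted p = 0.351), with a 95% interval of -0.17 to 0.93.

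Ecm1 (GRCm39 chromosome 3, 95641459 to 95646915, minus strand) encodes a secreted matrix protein known to hold latent TGF-beta inactive. It measured 49.7, 180 and 117 CPM in chow null and 128, 120 and 88.4 in Western null. The Western libraries lay inside the chow range, and the log2 fold change was -0.03 ± 0.48 (edgeR adjusted p = 0.973). Replicates of Ecm1 spread widely, and its interval ran from -1.06 to 0.99.

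Lrat encodes the enzyme that esterifies retinol for storage, the step by which stellate cells are known as vitamin A cells. Its span in the deposited table (GRCm39 chromosome 3, 82799889 to 82811281, minus strand) lies wholly inside that of Rbm46os on the other strand, which had 26 counts in all. Other listed genes that lie inside another gene (Tcf21, Timp1, Dhrs3, Vldlr, Cd5l and Ms4a1) were at 0 as well. The 0 of Lrat is therefore given as listed, with no statement on its expression.

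Both receptors for platelet-derived growth factor were higher in the Western null mean, and 1 of them passed. Pdgfrb (GRCm39 chromosome 18, 61178194 to 61218139, plus strand) encodes the beta receptor through which PDGF-BB drives stellate cell division. It measured 7.31, 19.2 and 13.0 CPM in chow null and 47.9, 29.0 and 41.5 in Western null. All 3 Western libraries lay above the chow range, and the log2 fold change was 1.66 ± 0.34 (edgeR adjusted p = 0.00518). Pdgfra (GRCm39 chromosome 5, 75311988 to 75358867, plus strand) encodes the alpha receptor and measured 7.77, 16.4 and 7.05 CPM in chow null and 30.6, 10.2 and 21.9 in Western null. Western null replicate 2 lay below chow null replicate 2, so the groups overlapped. The log2 fold change of Pdgfra, 1.11 ± 0.38, missed the threshold (edgeR adjusted p = 0.0642), and 6 of 23 alternatives called it, DESeq2 (adjusted p = 0.0415) among them. Over the 23 alternatives its adjusted p ran from 0.0168 to 0.261, and it was 0.0168 without chow null replicate 2.

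Of the cytoskeletal markers, Vim rose and the other 2 did not pass. Vim (GRCm39 chromosome 2, 13579122 to 13587637, plus strand) encodes vimentin, an intermediate filament protein of mesenchymal cells. It measured 11.8, 28.8 and 18.02 CPM in chow null, and 73.6, 74.6 and 74.2 in Western null. The Western libraries were nearly equal (SD 0.53 CPM) and lay far above the highest chow library, and the log2 fold change was 1.99 ± 0.34 (edgeR adjusted p = 0.00144).

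Des (GRCm39 chromosome 1, 75336936 to 75345223, plus strand) encodes desmin, the filament protein of muscle and of rodent stellate cells. It measured 2.97, 11.3 and 4.27 CPM in chow null and 3.95, 10.2 and 8.44 in Western null, and these ranges overlapped almost fully. The log2 fold change was 0.59 ± 1.45 (edgeR adjusted p = 0.826). Without Western siAATF replicate 1, which enters the shared estimate of spread, the same comparison gave 0.52 with an adjusted p of 0.569. Des overlaps the antisense gene Gm15179 over 4.46% of its span, and that gene had 2 counts in all.

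Acta2 (GRCm39 chromosome 19, 34217736 to 34232985, minus strand) encodes the smooth muscle actin of activated stellate cells and of vessel walls. It had 199 counts over all libraries and 1 to 57 per library. It measured 1.03, 3.95 and 1.31 CPM in chow null and 5.92, 3.07 and 5.12 in Western null. Chow null replicate 2, at 7 counts, lay inside the Western range with a 95% counting interval of 1.59 to 8.14 CPM. On the log2 scale the difference was 1.49 ± 0.78 (edgeR adjusted p = 0.220), with an interval of -0.15 to 3.13, which includes both no difference and a rise as large as that of Vim.

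**Figure D2:**
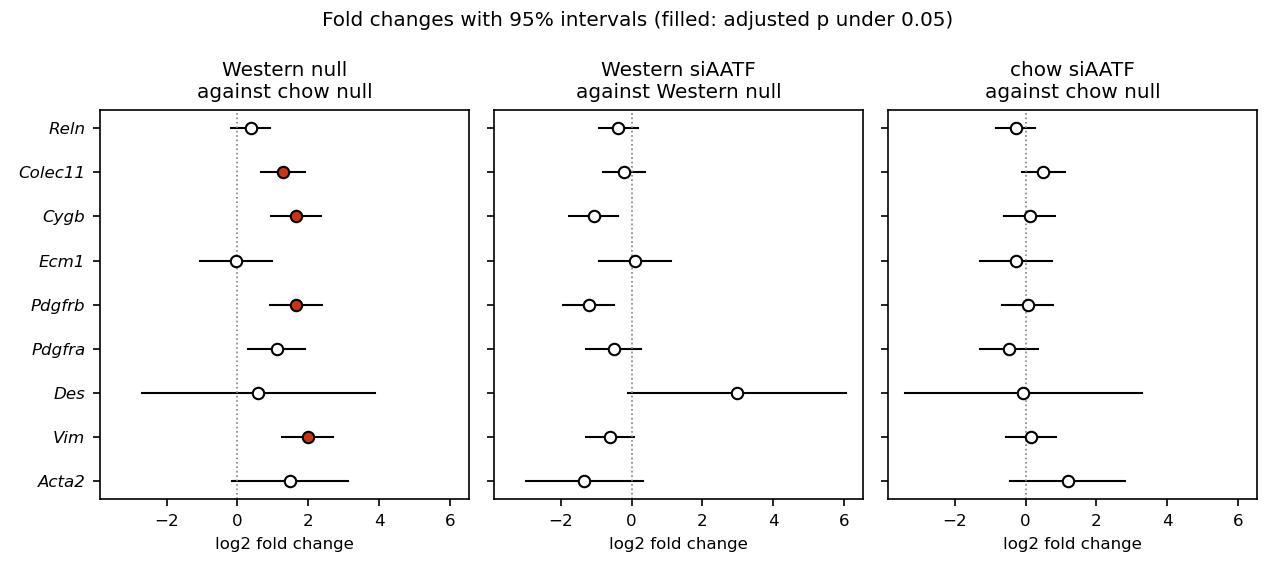
Log2 fold change of each counted marker with its 95% interval, derived from the edgeR test, in the 3 comparisons the series names. Filled points have an adjusted p under 0.05. Colec11, Cygb, Pdgfrb and Vim are filled in the diet comparison and none in the other panels, and Des has the widest intervals.

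Between the vectors on the Western diet, no marker passed the test, and the markers that rose with the diet had lower means with siAATF. Over all genes 0.871% were called, 0.31% higher and 0.561% lower. By unadjusted p under 0.05, 2 markers (Cygb and Pdgfrb) and 1271 genes were past. DESeq2 called 1 marker, Pdgfrb, and 285 genes in all, against 104 genes in the main fit. The edgeR fit with no filter on low counts called 2 markers, Pdgfrb and Des, and 572 genes in all. The median log2 fold change was -0.51 for the 9 markers and 0.06 for all genes. Pdgfrb, Cygb and Vim had all 3 Western siAATF libraries below all 3 Western null libraries, as did 7.87% of all genes tested, and none lay wholly above, as did 7.69%. This comparison and the diet comparison share the Western null libraries, so low values in one and high values in the other are not independent. With total count scaling the median of all genes moved by -0.44 and the share of higher calls from 35.6% (of 104) to 14.7% (of 95), and no marker was called.

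Pdgfrb measured 14.6, 12.9 and 24.6 CPM in Western siAATF, against 29.0 to 47.9 in Western null. Its log2 fold change was -1.21 ± 0.34 (edgeR adjusted p = 0.138), and its adjusted p ran from 0.00838 to 0.457 over 23 alternatives. The 3 alternatives that called it were DESeq2 (adjusted p = 0.0457), no filter on low counts (0.00838) and leaving out Western siAATF replicate 3 (0.0189, log2 fold change -1.53). Replicate 3 was the library of this group nearest to the Western null range.

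Cygb measured 9.07, 6.58 and 10.6 CPM in Western siAATF, against 13.8 to 22.5 in Western null. Of these, 6.58 lay inside the chow null range of 4.46 to 7.91, and 9.07 and 10.6 lay between it and the Western null range. The Western null mean was 18.1 ± 4.34 (SD, n = 3). The log2 fold change was -1.07 ± 0.33 (edgeR adjusted p = 0.179), and none of 23 alternatives called it.

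Vim measured 59.5, 29.5 and 58.1 CPM in Western siAATF, against 73.6 to 74.6 in Western null. Replicate 2 stood just above the highest chow null library, and the other 2 between the chow and Western null ranges. On the log2 scale the difference was -0.60 ± 0.32 (edgeR adjusted p = 0.548).

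Pdgfra at 15.5, 13.4 and 14.96 CPM, Colec11 at 33.2, 37.4 and 48.9, and Reln at 92.4, 108 and 154 overlapped their Western null ranges. Their log2 fold changes were -0.51 ± 0.37, -0.21 ± 0.28 and -0.37 ± 0.26. For Colec11 the interval was -0.81 to 0.39, which includes no difference. Ecm1 measured 86.5, 60.8 and 215 CPM, a wider span than the Western null libraries on both sides.

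Acta2 measured 3.54, 0.227 and 1.76 CPM in Western siAATF, from 16, 1 and 4 counts. Replicate 1 lay inside the Western null range of 3.07 to 5.92 and the other 2 below it. On the log2 scale the difference was -1.33 ± 0.78 (edgeR adjusted p = 0.600). Without replicate 1 it was -2.50, with an adjusted p of 0.397.

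Des measured 175, 5.67 and 3.08 CPM in Western siAATF. Replicate 1, with 790 of the 1148 Des counts of the whole series, was the library with the skeletal muscle genes, and the other 2 overlapped every other group. With all libraries the log2 fold change against Western null was 2.99 ± 1.35 (edgeR adjusted p = 0.488), and without replicate 1 it was -0.76 (adjusted p = 0.727). The fit with no filter on low counts, in which replicate 1 was kept, gave 2.98 with an adjusted p of 7.09e-16. Against chow siAATF it went from 3.64 to -0.15 and against chow null from 3.58 to -0.24. The Western siAATF mean of Des, 61.2 ± 98.3 CPM (SD, n = 3), therefore describes 1 library. No marker was called in the vector comparison on Western diet without that library.

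**Figure D3:**
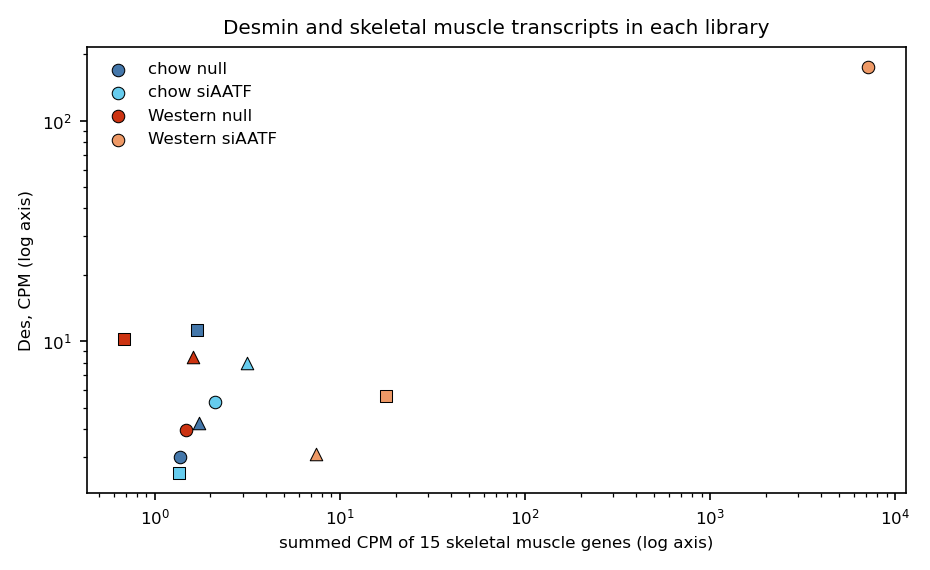
Des level against the summed level of 15 skeletal muscle genes in each of 12 libraries, both in CPM on log axes; colours give the group and shapes the replicate. Western siAATF replicate 1 stands alone at 175 CPM for Des and 7179 CPM for the muscle genes, and in the other 11 libraries Des stays between 2.52 and 11.3 CPM.

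On chow, the 2 vectors could not be told apart in any marker. No gene of the 11934 was called by edgeR (0%). By unadjusted p, 285 genes and 0 markers were under 0.05, DESeq2 called 1 gene and no marker, and the fit with no filter on low counts called 33 genes and no marker. The chow siAATF libraries measured 26.7, 15.1 and 20.9 CPM for Vim, 15.1, 12.9 and 11.1 for Pdgfrb, and 8.47, 5.60 and 5.02 for Cygb. All 9 markers overlapped between these groups, where 4.25% of genes lay wholly higher and 4.32% wholly lower.

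Pdgfra measured 8.47, 6.40 and 6.27 CPM in chow siAATF, and Reln 114, 109 and 65.0. Replicate 3 was the lowest of all 12 libraries for both. Colec11 measured 41.0, 20.7 and 19.02 CPM, so that replicate 1 stood at the Western level and the other 2 at the chow level. The 95% interval of its log2 fold change was -0.11 to 1.11, which includes both no difference and a difference of 1.

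Acta2 measured 2.91, 1.29 and 7.73 CPM in chow siAATF, and its replicate 3 was the highest of the 12 libraries. That library also had the highest level of Myh11, the myosin of vascular smooth muscle (32.2 CPM, against 3.43 to 21.5 in the other 11). The sum of the 7 listed vascular smooth muscle genes was 46.2 CPM there. It was highest, at 47.3 CPM, in Western siAATF replicate 1, where Acta2 was 3.54 CPM. A link between these genes and Acta2 was not tested. Des in chow siAATF measured 5.29, 2.52 and 7.94 CPM and Ecm1 96.3, 122 and 65.0.

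With siAATF in both diet groups, the Western diet gave no marker call (1.48% of all genes called, 0.763% higher and 0.721% lower, 51.4% of these calls higher, or 37.3% with total count scaling). Vim and Pdgfra had all Western siAATF libraries above all chow siAATF libraries, as did 9.24% of genes, and no marker lay wholly below (8.36% of genes). The log2 fold change of Vim was 1.24 ± 0.33 (edgeR adjusted p = 0.0696), and 6 of 23 alternatives called it, with adjusted p from 0.0032 to 0.337. That of Pdgfra was 1.07 ± 0.38 (edgeR adjusted p = 0.186).

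Western siAATF livers set against chow null livers gave 1 marker called of 9 (2.43% of all genes called, 1.26% higher and 1.17% lower). Of these calls 51.7% were higher, or 37.7% with total count scaling. Vim was higher by 1.38 ± 0.34 (log2, edgeR adjusted p = 0.0382), with no overlap (8.97% of genes lay wholly higher and 8.36% wholly lower). This call was lost in 11 of 23 alternatives, among them total count scaling (adjusted p = 0.135), the fit of these 2 groups alone (0.221) and the fit without Western siAATF replicate 1 (0.148). It was also lost without chow null replicate 1 or 3, chow siAATF replicate 3, or any 1 of the Western null libraries (adjusted p 0.057 to 0.182). Colec11 was next, at 1.07 ± 0.29 (edgeR adjusted p = 0.0633), also with no overlap. Cygb and Pdgfrb stood at 0.58 ± 0.34 and 0.45 ± 0.35, with edgeR adjusted p of 0.402 and 0.536.

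The difference between the diet effects under the 2 vectors was tested as an interaction, and no marker passed (0.193% of all genes called, 0.101% higher and 0.0922% lower, 52.2% of these calls higher, or 19.05% with total count scaling). At unadjusted p under 0.05 were 1093 genes and 3 markers, Pdgfrb (-1.26 ± 0.48, log2), Cygb (-1.19 ± 0.47) and Acta2 (-2.51 ± 1.10). Their edgeR adjusted p was 0.434, 0.461 and 0.515. DESeq2 called no marker and 124 genes in all, against 23 genes in the main fit. The fit with no low-count filter, which kept Western siAATF replicate 1, called 1 marker, Des, and 331 genes in all.

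Western null had the highest group mean in 7 of the 9 markers, and the order of the other groups differed between markers. For Vim, Cygb and Colec11 the order from low to high was chow null, chow siAATF, Western siAATF and Western null. For Vim the libraries of the last 2 steps did not overlap, since chow siAATF lay below Western siAATF and Western siAATF below Western null. For Cygb and Pdgfrb the only neighbours that did not overlap were Western siAATF and Western null. Neighbours overlapped at every step for Acta2, Des, Pdgfra, Reln, Colec11 and Ecm1.

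Pdgfrb and Cygb were the most alike pair of markers. Likeness was taken as the mean absolute difference of centred log2 CPM over the 12 libraries, which share depth and scaling, and the value was 0.27 for this pair. Cygb and Vim stood at 0.35, Cygb and Colec11 at 0.35, Pdgfrb and Vim at 0.36, and Reln and Ecm1 at 0.37. Acta2 and Des were 1.05 apart. Without Western siAATF replicate 1, Pdgfrb and Cygb were still the nearest pair (0.26), and Acta2 and Des were 0.72 apart.

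Of 9135 other genes, those nearest to Vim were Sparc (0.16), a matrix glycoprotein, and Serpinh1 (0.19), the collagen chaperone. Nearest to Pdgfrb were Bgn, the proteoglycan biglycan, and Lamb1, a laminin chain (0.23 each). Cygb was nearest to Cd93 (0.18), a receptor of endothelial cells, and Lamb1 (0.19). Des was nearest to Myom1 (0.52) and Tpm1 (0.61), and Myom1 reached the 5 CPM needed only through the library with skeletal muscle transcripts. Without that library the nearest to Des were Nme3 and Mocs3 (0.34 each).

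Colec11 was nearest to Clstn1 (0.21) and Pcdh17 (0.23), Pdgfra to Ptpn14 (0.26) and Psd4 (0.27), and Reln to Hmcn1 (0.14) and Suclg2 (0.16). Ecm1 was nearest to Cisd1 (0.21), and Acta2 to Sparcl1 (0.39) and Mvp (0.51). Without Western siAATF replicate 1 the first nearest gene was the same for Acta2, Reln, Cygb, Colec11, Ecm1 and Vim and differed for Pdgfrb (Adamts2, 0.22), Pdgfra (Gskip, 0.26) and Des. These are descriptions of the libraries, with no test.

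Counts were set against Reln within the same library, a ratio chosen after the values were seen and given with no test. By this ratio Vim, Pdgfrb, Cygb and Colec11 stood higher in every Western null library than in any chow null library. The share of all genes that did so under this ratio was not computed, and Des was left out. Acta2, Pdgfra and Ecm1 overlapped between these groups. For each 100 Reln counts there were 11.8, 24.2 and 13.5 Vim counts in chow null and 44.1, 55.3 and 47.4 in Western null. For Pdgfrb the figures were 7.35, 16.1 and 9.73 in chow null and 28.7, 21.5 and 26.5 in Western null. In chow siAATF they were 23.4, 13.9 and 32.2 for Vim and 13.2, 11.8 and 17.0 for Pdgfrb. In Western siAATF they were 64.4, 27.2 and 37.7 for Vim and 15.8, 11.9 and 16.0 for Pdgfrb. The ratio of Vim in Western siAATF thus spanned the Western null range, and that of Pdgfrb lay within the chow null range.

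The pathways around the markers were read through listed genes, beside the same 13.2% of all genes called in the diet comparison. Of 4 ligands of the receptors, 1 rose: Pdgfa, which binds the alpha receptor, by 1.26 ± 0.40 (log2, edgeR adjusted p = 0.0463). Of 13 retinoid genes tested of 16, none rose and 1 fell, Cyp26a1, the retinoic acid hydroxylase, by 2.23 ± 0.50 (adjusted p = 0.00813). Cyp26a1 is also made by hepatocytes. Of 4 reelin pathway genes tested of 7, 1 rose, the kinase Src (2.12 ± 0.56, adjusted p = 0.0196). Of 7 lectin complement genes tested of 8, the 1 that changed was Masp1, a protease that works with collectin-11, which fell by 0.84 ± 0.21 (adjusted p = 0.0146).

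Other genes of the cytoskeleton were listed beside Acta2 and Vim. In the diet comparison 6.44% of all genes tested were called higher. Of 12 tested of 15 in the actin list, 2 rose: Flna, the actin crosslinker filamin A (1.72 ± 0.26, edgeR adjusted p = 0.000614), and Actg1, a cytoplasmic actin (1.16 ± 0.31, adjusted p = 0.0209). Of 6 partners of intermediate filaments, 1 rose, the nuclear lamina gene Lmna (0.95 ± 0.29, adjusted p = 0.0379). In the vector comparison on Western diet, where only 0.871% of all genes were called, none of these 18 passed.

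Of 8 tested of 9 matrix genes that activated stellate cells and fibroblasts make, 6 rose with the diet and none passed as lower, with a median log2 fold change of 2.68. Among all genes tested, 6.44% were called higher and 6.77% lower. Col5a2 rose by 3.24 ± 0.46 (edgeR adjusted p = 0.00038), Col1a2 by 4.02 ± 0.65 (0.00278), Sparc by 1.92 ± 0.30 (0.000631) and Timp2, a metalloproteinase inhibitor, by 2.11 ± 0.39 (0.00259). With siAATF on Western diet, where only 0.871% of all genes were called, none of the 8 passed. Col3a1 (-1.76 ± 0.59, edgeR adjusted p = 0.270) and Col1a2 (-1.64 ± 0.58, 0.301) had the lowest p. Fn1, fibronectin, which hepatocytes also make in quantity, differed from the rest of the list and is named after its values were seen. It measured 3377, 3214 and 2927 CPM in chow null and 2011, 1665 and 1957 in Western null, with no overlap (log2 fold change -0.76 ± 0.28, edgeR adjusted p = 0.0837). The sum of the list, most of it Fn1, was 3033 to 3452 CPM in chow null and 2720 to 3474 in Western null.

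With the diet, 6.44% of all genes tested were called higher. Of 13 genes tested of 17 for TGF-beta and its release from latency, the signal that drives stellate activation, 6 rose with the diet. They were led by the latent binding proteins Ltbp3 (2.34 ± 0.47, edgeR adjusted p = 0.00426), Ltbp1 (1.75 ± 0.36, 0.00509) and Ltbp2 (2.89 ± 0.71, 0.0138), and Thbs1, an activator of latent TGF-beta (1.81 ± 0.50, 0.0257). None fell, and none passed between the vectors on Western diet, where only 0.871% of all genes were called.

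A second list of 20 genes named for stellate cells, none of them among the 10, gave 6 higher and 0 lower of 18 tested in the diet comparison, with a median of 1.01. Over all genes tested 6.44% were called higher and 6.77% lower. Tcf21 was at 0. The 4 with the lowest adjusted p were Adamtsl2 (2.32 ± 0.44, edgeR adjusted p = 0.00305), Postn, the matrix protein periostin (2.14 ± 0.41, 0.00306), Lum, the proteoglycan lumican (2.45 ± 0.47, 0.00338), and the collagen crosslinking enzyme Lox (4.26 ± 0.91, 0.00634). Lox had only 44 counts over all libraries together, so its fold change rests on few reads. With siAATF on Western diet, where 0.561% of all genes were called lower, 1 of the 18 fell, Adamtsl2, by 1.93 ± 0.43 (adjusted p = 0.045). Its Western null libraries stood at 42.5, 22.1 and 45.7 CPM, and those with siAATF at 12.6, 6.81 and 9.68, with no overlap.

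The summed level of this list ran from 300 to 375 CPM in chow null, 557 to 675 in Western null and 374 to 945 in Western siAATF. The spread in the last group came largely from Steap4, named after its values were seen, at 467, 632 and 56.3 CPM. Without Steap4 the sums were 376 to 496 CPM for Western null and 260 to 318 for siAATF on the same diet.

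**Figure D4:**
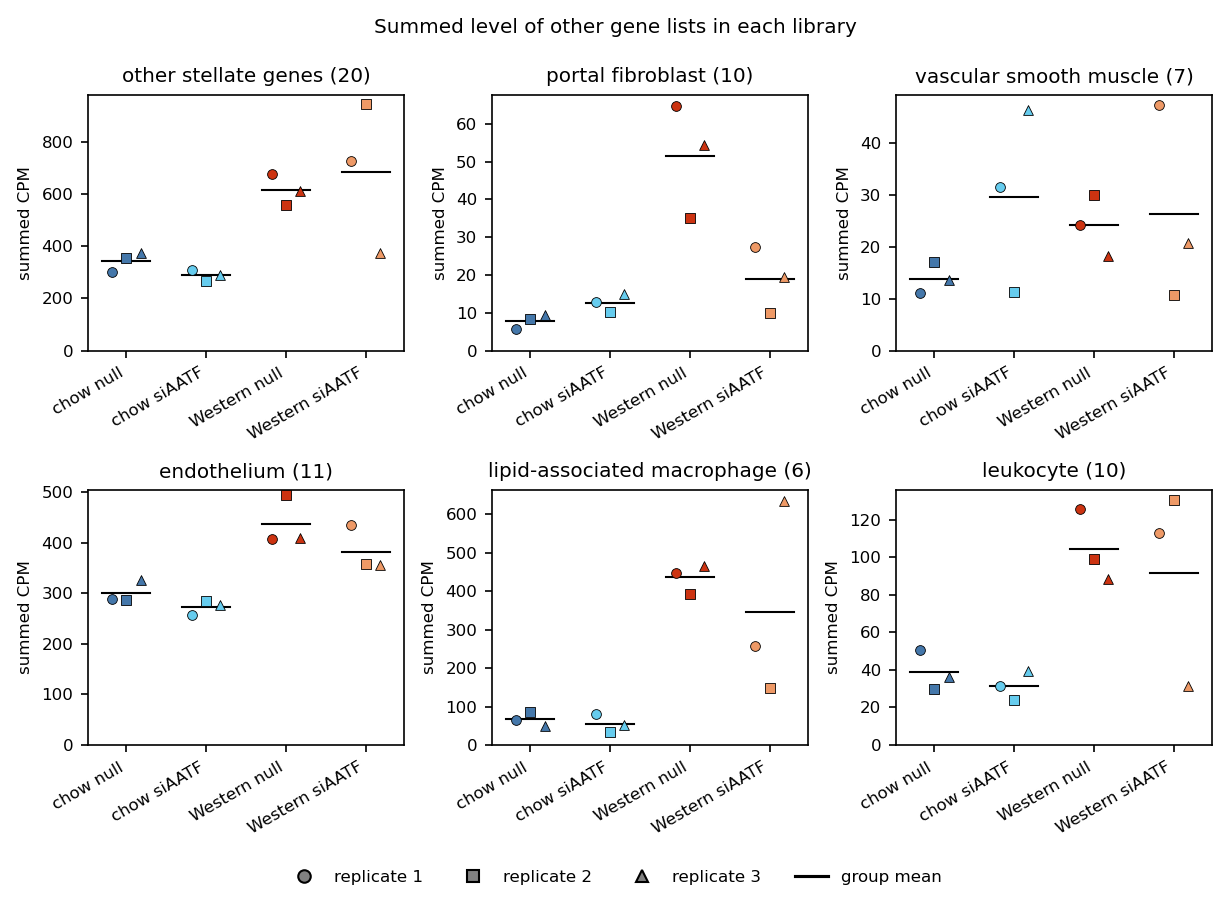
Summed CPM of 6 gene lists in each library (genes listed per list in brackets); points are libraries, shape gives the replicate and lines are means of 3. In all 6 panels the Western null libraries lie above the chow null libraries, and Western siAATF libraries spread widely for the stellate, macrophage and leukocyte lists.

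Markers of other cells that share these genes also differed between the diets, and their part in the marker results was not tested. Portal fibroblast genes, of which 4 of 10 were tested, rose in all 4, against 6.44% of all genes called higher. They were Eln, elastin (3.17 ± 0.54, edgeR adjusted p = 0.00138), Fbln2, Dpt and Entpd2. Their sum ran from 5.60 to 9.49 CPM in chow null, 10.3 to 14.8 in chow siAATF, 35.1 to 64.7 in Western null and 9.99 to 27.4 in Western siAATF. All 4 had Western siAATF libraries below all Western null libraries, as did 7.87% of all genes tested. None passed that comparison, where only 0.871% of all genes were called. Of the genes that define these cells, Gli1 was at 0 in 11 of 12 libraries, Cd34 in 7 and Thy1 in 2, and Thy1 reached at most 4.94 CPM.

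In the diet comparison 6.44% of all genes tested were called higher. Endothelial genes gave 4 higher of 10 tested of 11, led by Lyve1 (2.15 ± 0.43, edgeR adjusted p = 0.00429) and Vwf (1.69 ± 0.37, 0.00712). The sum was 287 to 327 CPM in chow null, 257 to 285 in chow siAATF, 408 to 493 in Western null and 355 to 434 in Western siAATF. Leukocyte genes gave 4 higher of 6 tested of 10, led by Itgax (4.51 ± 0.54, 9.07e-05). Their sum rose from 29.9 to 50.6 CPM in chow null to 88.3 to 126 in Western null, and was 23.8 to 39.3 in chow siAATF and 31.7 to 131 in Western siAATF. Both are sources of Vim besides stellate cells.

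Over all genes tested, the diet comparison called 6.44% higher and 6.77% lower. Genes of lipid-associated macrophages, which gather around fat-laden hepatocytes, had calls in both the diet and the vector comparison. Of 6 tested, 5 rose with the diet, and 4 fell with siAATF on Western diet, where 0.561% of all genes were called lower: Gpnmb (log2 fold change -6.04 ± 0.50, edgeR adjusted p = 8.39e-06), Cd63 (-2.05 ± 0.29, 0.00207), Trem2 (-2.84 ± 0.50, 0.0102) and Spp1 (-2.64 ± 0.45, 0.0107). Their sum was 48.7 to 86.4 CPM in chow null, 32.6 to 79.4 in chow siAATF, 393 to 466 in Western null and 148 to 634 in Western siAATF. Lpl, lipoprotein lipase, named after its values were seen, measured 126, 177 and 169 CPM in Western null and 209, 88.7 and 593 with siAATF (adjusted p = 0.724). Without Lpl the sums were 216 to 322 CPM in Western null and 40.9 to 59.2 with siAATF. Of 7 Kupffer cell genes tested of 8, Cd68 and Csf1r rose with the diet. Timd4, a marker of resident Kupffer cells, fell by 2.31 ± 0.63 (edgeR adjusted p = 0.0234). None of the 7 passed between the vectors on Western diet, where only 0.871% of all genes were called.

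Vascular smooth muscle genes gave no call, with 3 of 7 tested, and sums of 10.97 to 16.9 CPM in chow null, 11.2 to 46.2 in chow siAATF, 18.1 to 29.98 in Western null and 10.7 to 47.3 in Western siAATF. Of the defining genes, Cnn1 was at 0 in 8 of 12 libraries and Actg2 in 6. Mesothelial genes, 2 of 6 tested, gave no call and sums of at most 15.3 CPM. Erythroid genes, 4 of 4 tested, gave no call in the diet comparison. Of 4 bile duct genes tested of 6, Epcam rose with the diet, where 6.44% of all genes were called higher. Of 9 hepatocyte genes Hnf4a, a transcription factor of hepatocytes, fell with the diet, where 6.77% of all genes were called lower. Neither list had a call between the vectors on Western diet, where only 0.871% of all genes were called.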

How the data were processed

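Liver RNA was measured by sequencing of SMART-Seq libraries, per the labels' protocols. The deposited table holds raw read counts per gene, whole numbers made by the authors with STAR 2.7.11 and featureCounts 2.0.1 on GRCm39, per the submitters' processing notes, which also name R 4.3.2 and DESeq2 1.42.0. Strand use and the handling of shared reads were not given there. Each gene's length in the table equals its whole span, so introns are included, and genes inside another gene can be listed at 0 (28210 of 50499 genes are at 0 throughout).

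From these counts, genes were filtered with filterByExpr by group, library sizes scaled by TMM, and 11934 genes tested with edgeR 4.0.16 (quasi-likelihood, robust, R 4.3.3) in a single fit over the 12 libraries, each group having its own mean. P-values were adjusted by Benjamini-Hochberg over all genes, with a threshold of 0.05. The SE of a log2 fold change was derived from this test, as its absolute value over the square root of F. Its 95% interval used the t distribution on the degrees of freedom of the test. CPM are the counts scaled by these library sizes (edgeR's cpm), and counting intervals are exact Poisson (95%). No replicate pair agreed within counting noise (the lowest chi-square was 10.3 times its degrees of freedom), so each library was counted. DESeq2 1.42.0, limma 3.58.1 voom, other scalings, no filter, thinned counts and left-out libraries were tried, as was a fit without the 15 skeletal muscle genes, chosen after seeing the data.

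The members and the gene lists were chosen with earlier results of these data known, so no p over a list is given. All 10 markers are reported. Other genes are named by rule: at most 4 per list and comparison by adjusted p among those called, the 2 with the lowest p where none is, and the 2 genes of nearest pattern per marker among genes of at least 5 CPM (log2 CPM with a prior count of 2). For 1 item chosen by this rule no result is reported here. Promoters of 8 of the 10 markers were found by symbol.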

Additional observations from a re-analysis of the deposited data

How the results depend on the processing

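In the diet comparison with the null vector, Vim, Pdgfrb and Cygb were called in all 23 alternatives and Colec11 in 22, and 3 to 5 markers were called when 1 library was left out. The counts of calls over all genes moved more: from 1577 to between 658 and 2250 for diet, from 104 to between 26 and 572 for siAATF on Western diet, from 0 to at most 33 for siAATF on chow, from 177 to between 17 and 836 for diet with siAATF, from 290 to between 24 and 948 for Western siAATF against chow null, and from 23 to between 2 and 331 for the interaction. The causes were not tested. For siAATF on Western diet, DESeq2 called 1 marker, no low-count filter 2 and leave-one-out fits 0 to 1, against 0. For diet with siAATF, DESeq2 called 1, no filter 2, the fit without the 4 libraries over 25% 18S 1 and leave-one-out fits 0 to 1, against 0. For Western siAATF against chow null, DESeq2 called 2, no filter 3, total count scaling 0, the compared groups alone 0, thinned counts 0, the replicate block 0 and leave-one-out fits 0 to 2, against 1. For the interaction, no filter called 1 marker against 0. The fit without libraries over 25% 18S leaves chow null with 1 library, which is assumed to vary like the other groups. Replicate numbers did not pair the libraries: deviations of same-numbered libraries correlated between -0.378 and 0.259, and 1 of 18 pairs was over 0.1. The replicate block left the marker counts of the other comparisons at 4, 0, 0, 0 and 0.

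Each direction that changed belonged to a marker that the main fit did not call in that same comparison. Ecm1 in the diet comparison gave 0.28 (total count), 0.15 (limma-voom), 0.064 (replicate block) and -0.41 to 0.41 over leave-one-out fits, against -0.03. For siAATF on Western diet, Ecm1 gave -0.15 (total count), -0.10 (limma-voom), -0.047 (thinned) and -0.61 to 0.42 over leave-one-out fits, and Des -0.76 to 3.53. On chow, without libraries over 25% 18S, Des gave 0.16, Pdgfrb -0.076 and Cygb -0.10, and Pdgfrb thinned gave -0.14. Leave-one-out fits on chow gave -0.50 to 0.43 for Des, -0.26 to 0.35 for Pdgfrb, -0.11 to 0.28 for Cygb, -0.64 to 0.18 for Ecm1 and -0.13 to 0.47 for Vim. For diet with siAATF they gave -0.15 to 4.20 for Des and -0.40 to 0.66 for Ecm1. For Western siAATF against chow null, Acta2 gave -0.14 (limma-voom), -0.19 (thinned) and -1.01 to 0.75 over leave-one-out fits, Des -0.24 to 4.15, and Ecm1 -0.074 (thinned) and -0.65 to 0.51. In the same comparison Reln, at 0.01, gave -0.091 (total count), -0.022 (no filter), -0.015 (limma-voom), -0.080 (without libraries over 25% 18S), -0.028 (thinned) and -0.23 to 0.16 over leave-one-out fits. In the interaction, leave-one-out fits gave -0.67 to 3.57 for Des, -0.41 to 0.24 for Pdgfra, -0.36 to 0.063 for Reln and -0.37 to 0.74 for Ecm1, and Reln gave 0.28 without libraries over 25% 18S. Depth limits Acta2 most, at 1 to 57 counts per library.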
